A study of Bos taurus with 28 samples.

Results

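ENSBTAT00000053388 (1093 nucleotides) and ENSBTAT00000018521 (997 nucleotides) are 2 of the 28054 Ensembl bovine transcripts measured in cattle conceptuses. They were chosen by their values on days 13 and 16. By the difference of mean log2 levels they are the pair with the steepest rise into the filament stage, though not by the ratio of mean levels. Levels are in RPKM, the reads of a transcript scaled to its length and to the library's total. Among the 739 transcripts that were called higher on day 16, that averaged at least 5 RPKM on the higher of the 2 days and whose day 16 replicates all lay above those of day 13, they took ranks 1 and 2 by the difference of mean log2(RPKM + 1). That difference was 9.46 for ENSBTAT00000053388 and 9.39 for ENSBTAT00000018521. The transcript just outside the choice, ENSBTAT00000018536, had 9.36, and the next had 8.98. Over all 19186 transcripts tested for that step, 5.06% were called higher and 15.6% had all day 16 replicates above those of day 13. Because these values made the choice, they are a description, and days 13 and 16 get no test here.

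The deposited tables do not pair identifiers with gene names. The RefSeq table of 37063 bovine genes held Ensembl identifiers for 0 of its entries, so no match by identifier was possible. The roles of the 2 transcripts, their genes and their sequences are therefore not given here. As background, the conceptus is the embryo with its membranes. After the blastocyst leaves the zona it grows into a sphere and an ovoid, and the trophectoderm, its outer layer, then lengthens into a filament. The filament secretes interferon tau, which tells the mother that she is pregnant by keeping the corpus luteum active, and trophoblast later attaches to the uterine lining.

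Conceptuses were taken from crossbred beef heifers, all inseminated with one bull. The groups were day 7 (blastocyst), day 10 (hatched sphere), day 13 (ovoid at the start of elongation), day 16 (filament at maternal recognition) and day 19 (filament at the start of implantation). Per the labels' protocols, day 7 and day 10 libraries are pools of 5 embryos from superovulated heifers, while later conceptuses were single; the sample fields of day 13 state pooling and superovulation instead. Polyadenylated RNA was taken directly on days 7, 10 and 13, and from total RNA on days 16 and 19, so stage and RNA preparation cannot be told apart between these sets, nor, by the protocols, stage and pooling. The labels hold 6 libraries for day 7, 7 for day 10 and 5 for each later day, and do not name the heifer of each.

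Before any result, 3 libraries stand apart because their file carries the title of a sample of another day: day 16 replicate 5 (title of day 19), day 19 replicate 5 (title of day 7) and day 7 replicate 6 (title of day 16, file name marked day 7). They entered no comparison. The files of all day 7 and day 19 replicates that were compared also carry the title of another sample, though of the same day. The comparison of day 19 against day 7 thus rests on files whose title and sample differ. Day 16 replicates 2 and 3 differed by little more than sampling noise (mean chi-square of 1.19 per transcript, where noise alone gives 1) and count as 1 sample. This left 24 replicates, of which 5 were of day 7, 7 of day 10, 5 of day 13, 3 of day 16 and 4 of day 19. Library totals ran from 473552 to 10871501 reads. In day 7 replicate 5 and day 10 replicate 7 a transcript of 92 nucleotides held 34.35% and 38.41% of the reads (95% Wilson intervals 34.21 to 34.48 and 38.29 to 38.52, for counting error only).

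Both transcripts had reads in all 28 libraries, and their mean levels followed the same order of days: lowest on day 13, then day 7, day 10 and day 19, and highest on day 16. In that order, the replicates of neighbouring days overlapped for both transcripts at every step except from day 10 to day 19. On day 16 ENSBTAT00000053388 was in the top 5 of its library by RPKM in each library not shown apart, and ENSBTAT00000018521 was in the top 2. On day 13 they stood at rank 7955 or lower in replicates 1 to 4. In bulk samples, fewer cells that make a transcript and less of it per cell cannot be told apart.

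**Figure D1:**
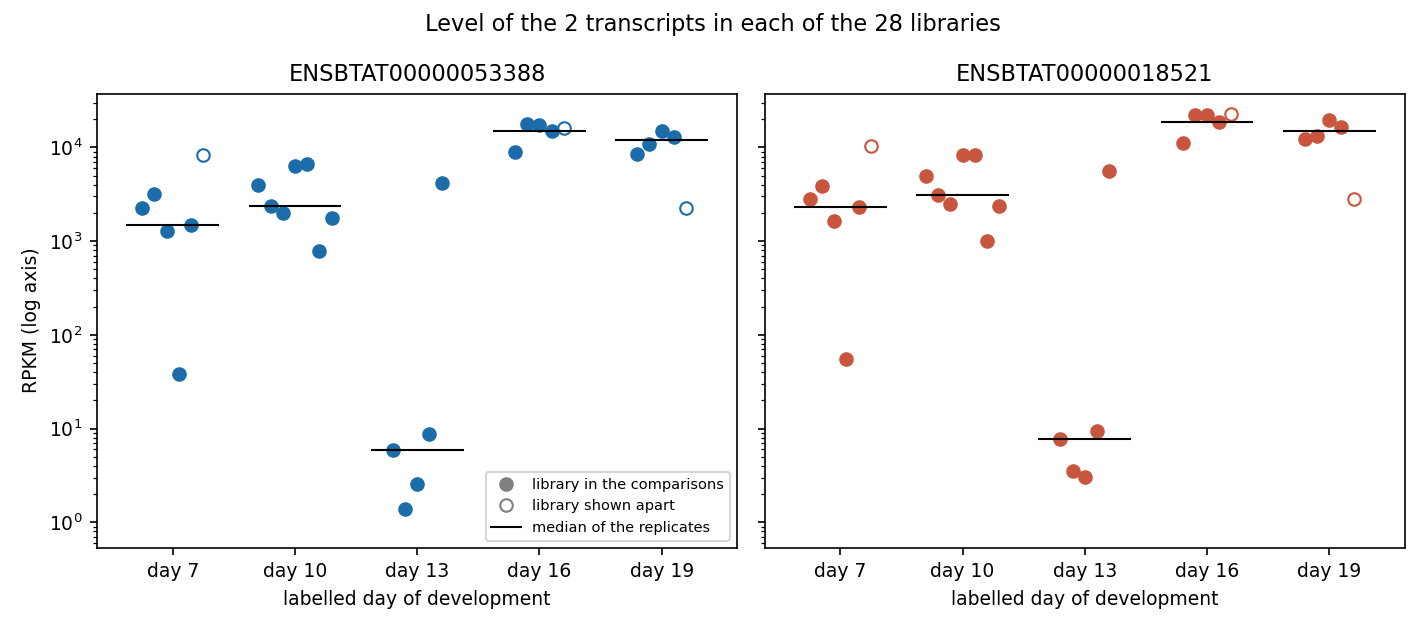
RPKM of ENSBTAT00000053388 (left) and ENSBTAT00000018521 (right) on a log axis for each of the 28 libraries by labelled day. Filled points are libraries in the comparisons, open points the 3 shown apart and lines the medians of the replicates; day 13 replicates 1 to 4 lie below 10 RPKM, while day 13 replicate 5 lies at 4158 and 5648 RPKM.

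On day 7 ENSBTAT00000053388 stood at 2231, 3152, 1281, 38.5 and 1503 RPKM in replicates 1 to 5, a mean of 1641 ± 1156 (SD, n = 5). ENSBTAT00000018521 stood at 2831, 3878, 1657, 54.7 and 2304 RPKM in the same replicates, a mean of 2145 ± 1424 (SD, n = 5). Replicate 4 was low for both, on 139 and 180 reads, and the lowest of the other 4 replicates was 33.3 times as high for ENSBTAT00000053388 and 30.3 times for ENSBTAT00000018521. On the log2 scale the day 7 SD was 2.56 and 2.51, and only 0.722% and 0.83% of the 16753 tested transcripts had a larger one.

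On day 10 ENSBTAT00000053388 ran from 777 RPKM through a median of 2377 to 6582, with a mean of 3404 ± 2296 (SD, n = 7). ENSBTAT00000018521 ran from 1013 through 3077 to 8347 RPKM, with a mean of 4367 ± 2942 (SD, n = 7). Replicate 6 was the lowest and replicates 4 and 5 the highest for both. Replicates 4 and 5 were also the deepest of the day, with 5106242 and 5202316 reads, and the most alike, with a mean chi-square of 4.49 per transcript. With every library thinned to 473537 reads, ENSBTAT00000053388 stood at 6420 and 6677 RPKM in these 2 replicates and ENSBTAT00000018521 at 8155 and 8223 RPKM, still the highest of the day. If the 2 replicates share material, n = 7 is too high. The spread itself was ordinary: the log2 SD was 1.10 and 1.09, and 39.1% and 40.1% of tested transcripts had a larger one.

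On day 13 the replicates fell into 2 sets far apart. ENSBTAT00000053388 stood at 5.91, 1.39, 2.57 and 8.69 RPKM in replicates 1 to 4, on 9 to 51 reads each. ENSBTAT00000018521 stood at 7.72, 3.55, 3.03 and 9.53 RPKM there, on 14 to 51 reads each. These low levels rest on few reads: the exact 95% Poisson interval, which covers counting error only, was 0.634 to 2.63 RPKM for ENSBTAT00000053388 in replicate 2, its lowest. Replicate 5 stood at 4158 RPKM for ENSBTAT00000053388, 478 times the highest of the other 4. It stood at 5648 RPKM for ENSBTAT00000018521, 593 times the highest of the other 4. These values lie inside the day 10 range for both transcripts. Replicate 5 was the shallowest library of the day, with 1232705 reads against 4636213 to 6500130 in the others. The day 13 means of 835 ± 1857 and 1134 ± 2523 RPKM (SD, n = 5) therefore describe no replicate; without replicate 5 they were 4.64 ± 3.31 and 5.96 ± 3.17 RPKM (n = 4).

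On day 16 ENSBTAT00000053388 stood at 9039.9 RPKM in replicate 1, 17474 in the merged replicates 2 and 3, and 14877 in replicate 4, a mean of 13797 ± 4319 (SD, n = 3). ENSBTAT00000018521 stood at 11118, 22334 and 18616 RPKM, a mean of 17356 ± 5713 (SD, n = 3). Every day 16 replicate lay above every replicate of days 7, 10 and 13. For day 13 the choice of the pair required this. The choice also favoured high day 16 values, so the separation from days 7 and 10 is a description only. The share of all transcripts separated in this way from days 7 and 10 was not computed. The reads of ENSBTAT00000053388 made up 1.51 ± 0.469% of a day 16 replicate (SD, n = 3) and those of ENSBTAT00000018521 1.73 ± 0.569%. The ratio of the day 16 mean to the day 13 mean was 16.52 and 15.30, but 2974 and 2914 against the mean of day 13 replicates 1 to 4. A single library of day 13 thus set the size of the step on the linear scale.

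On day 19 ENSBTAT00000053388 stood at 8407, 10849.6, 15045 and 13052 RPKM in replicates 1 to 4, a mean of 11839 ± 2858 (SD, n = 4). ENSBTAT00000018521 stood at 12159, 13360.4, 19721 and 16584 RPKM, a mean of 15456 ± 3402 (SD, n = 4). The ranges of days 16 and 19 overlapped. The log2 difference of day 19 minus day 16 was -0.20 for ENSBTAT00000053388 and -0.13 for ENSBTAT00000018521, beside a median of -0.17 over all tested transcripts, and after median centring it was 0.14 and 0.20. Its sign thus rests on the scaling. The difference of day 13 minus day 10 was -7.17 and -7.14, and -9.12 and -9.09 without day 13 replicate 5. All 3 steps share samples with the choice of the pair and were not tested.

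The choice compared days 13 and 16, and the levels of days 7, 10 and 19 entered it only through the filter on low values and the estimate of the spread, since the call came from a model of all 5 days. The changes among days 7, 10 and 19 were tested with limma in 1 model of 16 replicates over 16753 transcripts. Calls needed an absolute log2 change of at least 1 and, after Benjamini-Hochberg adjustment over all of them, a p under 0.05. Both transcripts were higher on day 19 than on day 7. ENSBTAT00000053388 changed by 3.71 ± 0.90 on the log2(RPKM + 1) scale (SE, limma; 95% interval 1.83 to 5.59; adjusted p = 0.021), from 1641 to 11839 RPKM. ENSBTAT00000018521 changed by 3.68 ± 0.88 (SE, limma; 95% interval 1.83 to 5.52; adjusted p = 0.0202), from 2145 to 15456 RPKM. Among all tested transcripts 425 were called higher (2.54%) and 478 lower, or 876 higher and 413 lower after median centring, and 7.23% had every day 19 replicate above every day 7 replicate, as both transcripts did. Larger absolute changes were found in 0.585% and 0.615% of tested transcripts.

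Replicate 4 of day 7 carried part of this change: without it the log2 change was 2.59 for ENSBTAT00000053388 (limma, adjusted p = 0.0149) and 2.58 for ENSBTAT00000018521 (adjusted p = 0.0136). Both calls ended without day 19 replicate 2 (limma, adjusted p = 0.065 and 0.0599), replicate 3 (0.0686 and 0.0666) or replicate 4 (0.0799 and 0.076), with log2 changes of 3.55 to 3.74. Both also ended in the model of all 5 days (same changes; limma, adjusted p = 0.13 and 0.131), whose estimate of the spread takes in day 13. Quantile normalization ended both as well, with log2 changes of 2.35 (limma, adjusted p = 0.15) and 3.45 (adjusted p = 0.0651).

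From day 10 to day 19 the change did not pass for either transcript. ENSBTAT00000053388 changed by 2.09 ± 0.84 (SE, limma; 95% interval 0.33 to 3.84; adjusted p = 0.288) and ENSBTAT00000018521 by 2.12 ± 0.83 (95% interval 0.39 to 3.84; adjusted p = 0.268). All 4 day 19 replicates nonetheless lay above all 7 of day 10 for both, a separation shown by 2.46% of tested transcripts. The lowest day 19 value of ENSBTAT00000053388 was 8407 RPKM against a highest of 6582 on day 10, and those of ENSBTAT00000018521 were 12159 and 8347 RPKM. For this comparison 28 transcripts were called higher (0.167%) and 68 lower, or 172 higher and 86 lower after median centring and 108 higher and 131 lower after quantile normalization. Quantile normalization also set the pair apart, with a log2 change of 1.05 for ENSBTAT00000053388 and 2.15 for ENSBTAT00000018521 (limma, adjusted p = 0.596 and 0.333). In the model of these 2 days alone ENSBTAT00000018521 passed (limma, adjusted p = 0.049) and ENSBTAT00000053388 did not (adjusted p = 0.0508).

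From day 7 to day 10 ENSBTAT00000053388 changed by 1.62 ± 0.79 (SE, limma; 95% interval -0.02 to 3.26; adjusted p = 0.645) and ENSBTAT00000018521 by 1.56 ± 0.77 (95% interval -0.05 to 3.17; adjusted p = 0.648). The replicates of the 2 days overlapped, and limma called 0 of all tested transcripts (0%), with 1291 at an unadjusted p under 0.05 and 6 called by voom on the recovered reads. Without day 7 replicate 4 the changes were 0.50 and 0.46. The intervals hold both no change and a rise of more than 3 on the log2 scale, so an equal level on the 2 days was not shown.

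**Figure D2:**
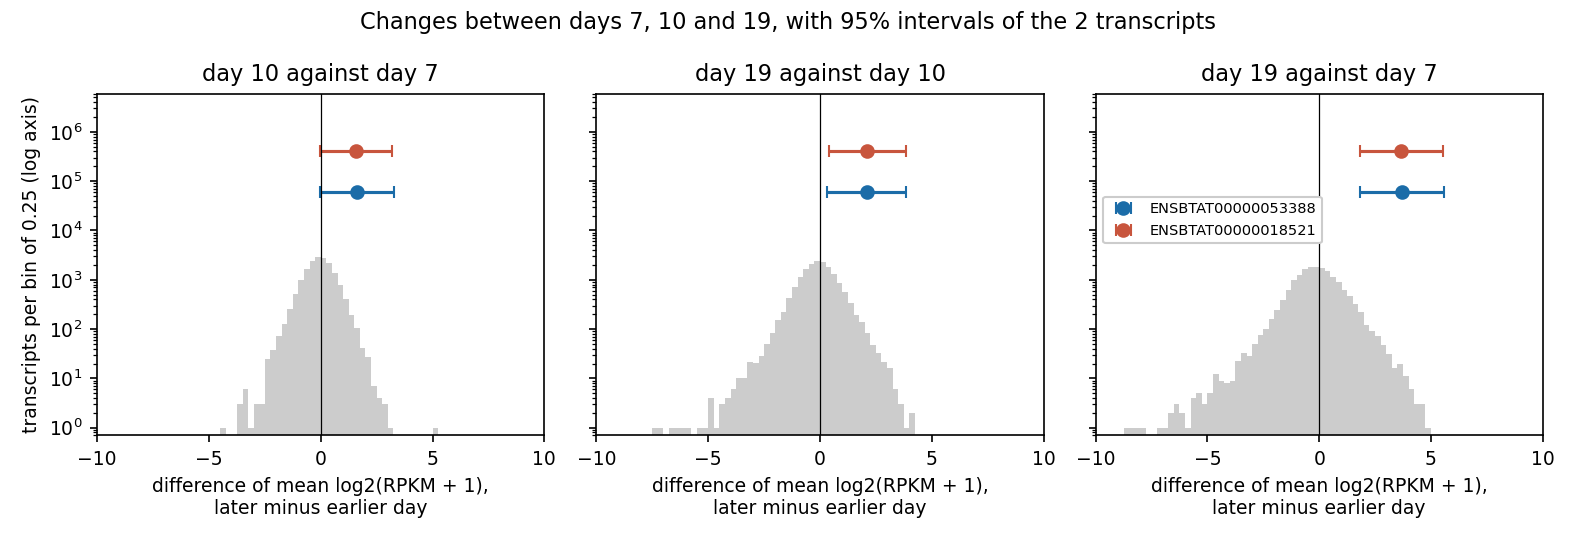
Grey bars count the 16753 tested transcripts by their difference of mean log2(RPKM + 1) in bins of 0.25, on a log axis, for each pair of days 7, 10 and 19; points and bars above give the 2 transcripts with 95% intervals from limma. The points lie to the right in each panel, at 1.62 and 1.56, 2.09 and 2.12, and 3.71 and 3.68, and the intervals for day 10 against day 7 reach below 0.

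The 2 transcripts kept almost the same proportion to each other while their levels moved over orders of magnitude. ENSBTAT00000018521 had the higher RPKM in 28 of 28 libraries. In the 21 libraries in the comparisons with at least 100 reads of each, the ratio of ENSBTAT00000018521 to ENSBTAT00000053388 ran from 1.23 through a median of 1.29 to 1.53. The mean ratio was 1.35 ± 0.125 on day 7 (SD, n = 5) and 1.29 ± 0.0374 on day 10 (SD, n = 7). On the filament days it was 1.25 ± 0.0242 (day 16, SD, n = 3) and 1.31 ± 0.0934 (day 19, SD, n = 4). The ranges of these 4 days overlapped. On day 13 the ratio was 1.36 in replicate 5, inside that range, and from 1.10 to 2.56 in replicates 1 to 4, where few reads allow wide intervals (1.19 to 5.48 for the highest, derived from the 95% Wilson interval of the share of reads).

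The proportion still varied by more than read sampling on days 7, 10, 16 and 19. The chi-square per degree of freedom of the split of reads between the 2 transcripts was 184 on day 19, where replicate 1 had a ratio of 1.45 and replicates 2 to 4 had 1.23, 1.31 and 1.27. Day 16 had 10.3, day 7 had 6.02, day 10 had 2.74 and day 13 had 0.988, against 1 for sampling noise alone. Chi-square grows with depth, and day 19 was the deepest day.

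**Figure D3:**
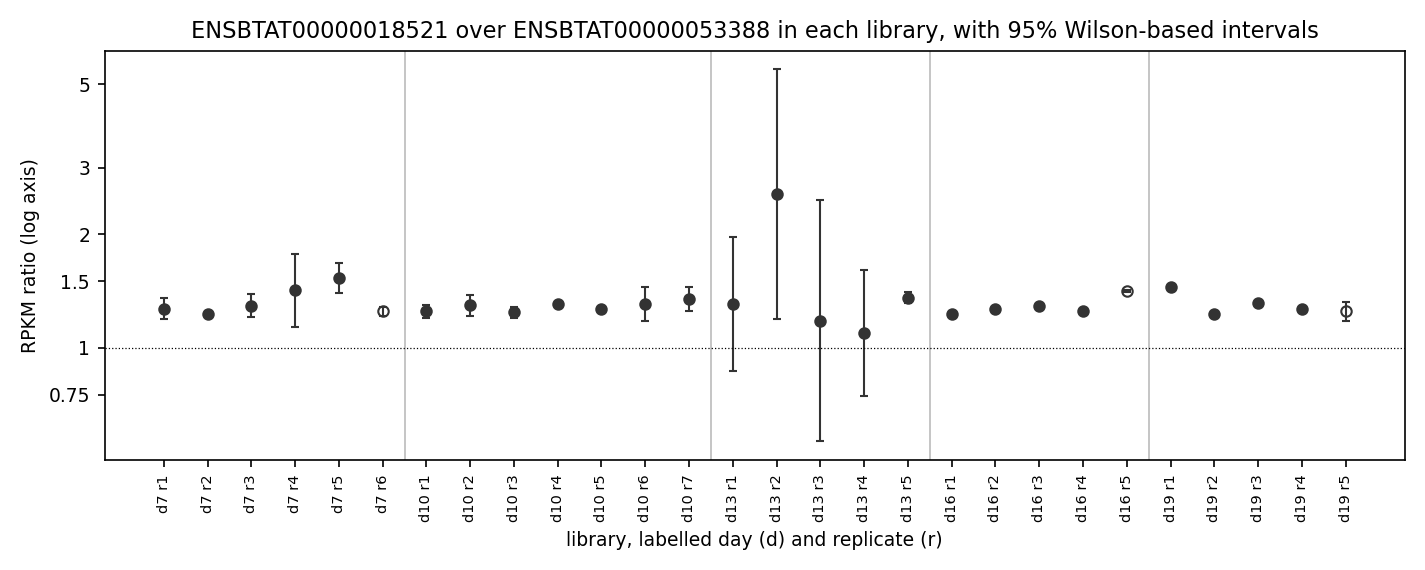
RPKM of ENSBTAT00000018521 divided by that of ENSBTAT00000053388 on a log axis for each of the 28 libraries, with intervals derived from the 95% Wilson interval of the share of reads; open points are the 3 libraries shown apart. The dotted line marks a ratio of 1. All points lie above it, and the wide intervals belong to day 13 replicates 1 to 4 and day 7 replicate 4. Day 7 replicate 5 stands at 1.53 and day 19 replicate 1 at 1.45.

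Replicates of a day also moved together for the 2 transcripts. Over the 7 replicates of day 10, a day the choice did not compare, Pearson's r of their log2 levels was 0.999 (p = 3.97e-04 by an exact two-sided permutation test) and Spearman's rho was 1 (exact permutation test, p = 3.97e-04); 7 replicates can give no smaller p. Without replicates 5 and 6, the farthest from the median, r was 0.998 over 5 replicates. These p-values take the 2 levels as separate measurements and the 7 replicates as separate samples, and neither was shown. They are not adjusted, and correlations with all other transcripts were computed on the same replicates as a description. Such closeness was rare: of 16741 transcripts that varied on day 10, 1 other, ENSBTAT00000018536, reached the same r with ENSBTAT00000053388, and 60 (0.358%) reached 0.9. Across days 7, 10 and 19, the deviations from the day means had an r of 0.999 over 16 replicates.

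ENSBTAT00000018536 (1081 nucleotides) was the transcript most like the pair, with r of 0.9999 to ENSBTAT00000053388 and 0.9996 to ENSBTAT00000018521 over the 24 replicates, given as a description. Its means were 1769 ± 1217 RPKM on day 7 (SD, n = 5), 3694 ± 2484 on day 10 (n = 7) and 932 ± 2072 on day 13 (n = 5). On day 16 it averaged 14735 ± 4760 RPKM (n = 3) and on day 19 13021 ± 3066 (n = 4). It thus lay between the 2 transcripts in mean level on each of the 5 days. Its reads and those of ENSBTAT00000053388 split with a chi-square per degree of freedom of 0.782 (day 7), 0.791 (day 10) and 0.121 (day 13), under the 1 that sampling noise gives, and of 2.69 (day 16) and 78.6 (day 19). How reads that match several transcripts were counted is not given in the sources used here, so the 3 levels may not be separate measurements. Whether they share reads was not tested.

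ENSBTAT00000019075 (881 nucleotides) came next, with r of 0.979 to both over the 24 replicates. Within days 7, 10 and 19 its deviations had an r of 0.937 with ENSBTAT00000053388 and 0.927 with ENSBTAT00000018521 over 16 replicates, less than the 0.999 between the pair. Its mean was 343 ± 293 RPKM on day 7 (SD, n = 5) and 691 ± 530 RPKM on day 10 (SD, n = 7). It averaged 3775 ± 1369 RPKM on day 16 (SD, n = 3) and 3515 ± 1380 RPKM on day 19 (SD, n = 4). On day 13 it stood at 0.245 to 1.90 RPKM in replicates 1 to 4 and at 1235 RPKM in replicate 5. In day 7 replicate 4 it was at 4.47 RPKM. The 2 replicates that stood apart for the pair stood apart for this transcript in the same direction. It was named for its high r over all 24 replicates, these 2 included, so the choice favoured that likeness. Of 13498 transcripts that passed the filter and averaged at least 5 RPKM on some day, 26 had an r of at least 0.9 with both, 10 of at least 0.95 and 1 of at least 0.99. The median of the lower r over all of them was -0.11. These values include the days that chose the pair, and all transcripts share the libraries.

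**Figure D4:**
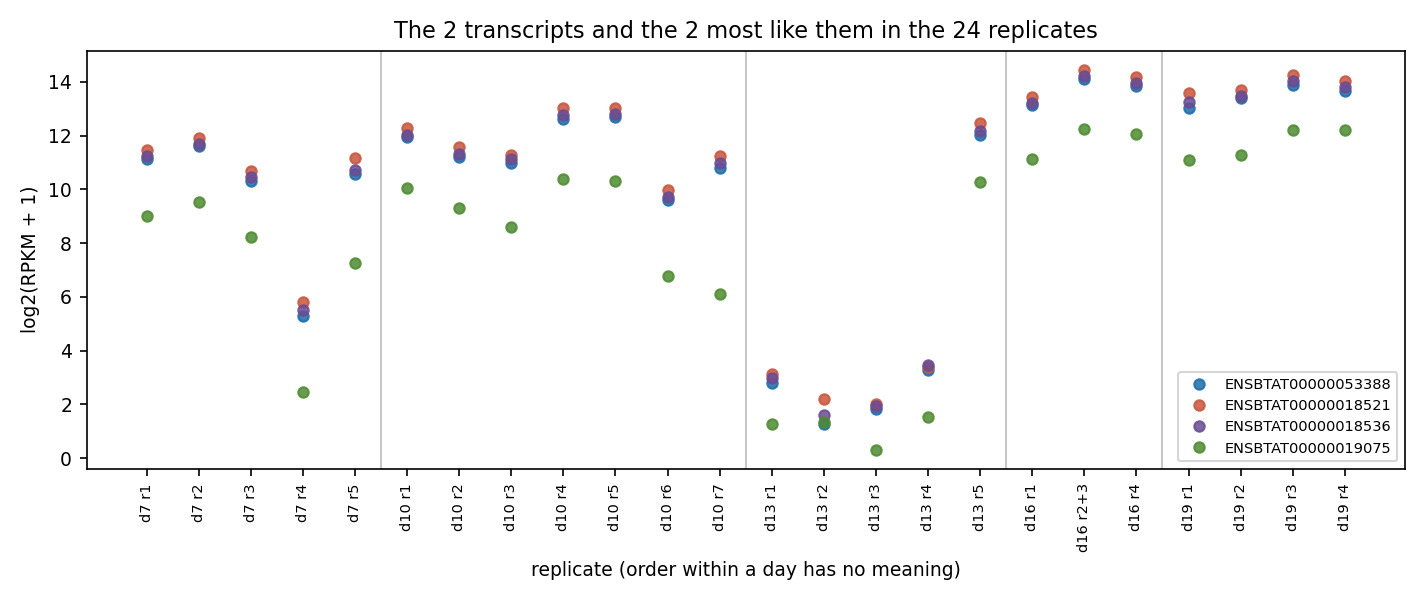
log2(RPKM + 1) of the pair, of ENSBTAT00000018536 and of ENSBTAT00000019075 in the 24 replicates, with grey lines between the days. The points of ENSBTAT00000018536 lie close to those of the pair, those of ENSBTAT00000019075 lie lower in most replicates, and all 4 drop in day 7 replicate 4 and rise in day 13 replicate 5.

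In the library labelled day 16 replicate 5, whose file is titled for day 19, ENSBTAT00000053388 stood at 15965 RPKM and ENSBTAT00000018521 at 22644 RPKM. ENSBTAT00000053388 was there inside the day 16 range and above the day 19 range, and ENSBTAT00000018521 above both. Its ratio was 1.42. In the library labelled day 19 replicate 5, whose file is titled for day 7, they stood at 2241 and 2798 RPKM, inside the day 7 range and below all other day 19 libraries. In the library labelled day 7 replicate 6, whose file is titled for day 16, they stood at 8207 and 10246 RPKM, above all other day 7 libraries and below all of day 16. With all 28 libraries as labelled the change of day 19 against day 7 was 2.70 for ENSBTAT00000053388 (limma, adjusted p = 0.35) and 2.67 for ENSBTAT00000018521 (adjusted p = 0.347), so both calls ended.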

How the data were processed

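For each of 28 libraries the authors deposited RPKM values by Ensembl transcript identifier. The submitters' processing notes name CASAVA. Aligner settings, build, annotation and counting rule: not given in the sources used here. All 492922 deposited RPKM values above 0 came out as whole reads (100.0%; within 1e-06 of a read, or 1e-09 of the value above 1000 reads) once transcript lengths and library totals were solved for, and these reads sum to at least 99.978% of each total.

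Groups follow the labels, and 12 files carry the title of another sample. Libraries of a day under a mean chi-square of 1.5 per transcript (at least 10 reads in the pair of libraries) were merged by mean RPKM. limma 3.58.1 in R 4.3.3 (lmFit, and eBayes with robust and trend options) was run on log2(RPKM + 1) for transcripts reaching 1 RPKM in at least 4 of 16 replicates. On simulated counts for day 19 against day 10, the same fit recovered 58.2% of 4-fold, 98.5% of 16-fold and 100% of 64-fold changes. The simulated spread was a fixed setting and not that of the pair, so these shares do not describe the pair. The pseudocount understates changes of low transcripts. Permutation tests used scipy 1.17.1. The alternatives changed the pseudocount, filter, scaling, model, depth and libraries. The pair, the tests and the rule below were chosen with earlier results of these data known. Named beyond the pair are the 2 transcripts whose lower Pearson r with its members was highest, among those averaging at least 5 RPKM on their highest day. Gene symbols could not be matched, so no pathway list was analysed. Since no label names a heifer, each p-value reflects only the variation among these samples, which may be partly technical.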

Additional observations from a re-analysis of the deposited data

Results flagged for a closer look

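On days 7, 10, 13 and 19, 12 groups of values were examined for one standing far off: the log2(RPKM + 1) of each transcript and their log2 ratio on each day. A distant value was present in 5. Chance gives a rate of about 1 in 20 where the values played no part in a choice. The day 13 values helped choose the pair, so the flags of that day are a description and are not set against that rate. The groups share replicates and both transcripts move together, so the 12 groups are not separate chances. ENSBTAT00000053388 was low in day 7 replicate 4, at 5.30 against 10.32 to 11.62 in the other 4. ENSBTAT00000018521 was low there too, at 5.80 against 10.70 to 11.92. ENSBTAT00000053388 was high in day 13 replicate 5, at 12.02 against 1.25 to 3.28 in the other 4, and ENSBTAT00000018521 at 12.46 against 2.01 to 3.40. The log2 ratio was high in day 13 replicate 2, at 1.36 against 0.13 to 0.44, on 9 and 21 reads. The day 13 split of reads between the 2 transcripts had a chi-square per degree of freedom of 0.988, where sampling noise gives 1.

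The 3 libraries shown apart held both transcripts. ENSBTAT00000053388 and ENSBTAT00000018521 stood at 15965 and 22644 RPKM in the library labelled day 16 replicate 5, at 2241 and 2798 RPKM in that labelled day 19 replicate 5, and at 8207 and 10246 RPKM in that labelled day 7 replicate 6.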

How the results depend on the processing

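No paired analysis was possible because the replicate numbers follow accession order only. The split of calls moved in both directions. Median centring and quantile normalization (108 higher and 131 lower for day 19 against day 10, 844 and 639 for day 19 against day 7) raised the share of higher calls. For day 19 against day 7 it fell with voom (963 higher and 2385 lower). It fell there too without the 2 libraries rich in 1 transcript (591 and 1196). So it did with totals without the most abundant transcript (471 and 791). For day 19 against day 10 it fell with voom (384 and 1060), without the rich libraries (67 and 323) and with those totals (57 and 167). Pseudocount 0.1 (20 and 104) and no filter (7 and 37) also lowered it in that comparison. All 5 days in 1 model (60 and 116) and only the 2 days compared (69 and 97) raised it there. Centring shifted both transcripts by 0.20 and 0.23 in these comparisons. The changes of both transcripts from day 7 or 10 kept their direction in every alternative run. The calls of day 19 against day 7 held in 16 of 22 alternatives for each transcript. The cause of the changes below was not tested.

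For day 19 against day 7, the log2 change of ENSBTAT00000053388 and ENSBTAT00000018521 was 2.35 and 3.45 under quantile normalization (limma, adjusted p = 0.15 and 0.0651), 2.70 and 2.67 with all 28 libraries as labelled (0.35 and 0.347), and 3.71 and 3.68 with all 5 days in 1 model (0.13 and 0.131). Each of these ended both calls. Leaving out 1 replicate at a time gave 2.59 to 4.17 and 2.58 to 4.11. For day 19 against day 10, ENSBTAT00000018521 passed at 2.12 with only the 2 days compared (limma, adjusted p = 0.049), and ENSBTAT00000053388 had 1.05 under quantile normalization where ENSBTAT00000018521 had 2.15; over all alternatives adjusted p ran from 0.0508 to 0.758 and from 0.049 to 0.75.

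Transcripts called for day 10 against day 7 numbered 0, but 1 with pseudocount 0.1, median centring, quantile normalization, all 28 libraries or all 5 days, 2 at equal depth, 6 with voom, and 0 to 6 with 1 replicate left out (6 without day 10 replicate 3). For day 19 against day 10 they numbered 96, but 258 with median centring, 239 with quantile normalization, 224 with totals without the most abundant transcript, 4 with all 28 libraries, 44 without a filter, 176 with all 5 days, 166 with only the 2 days, 1444 with voom and 390 without the 2 libraries rich in 1 transcript. Leaving out 1 replicate gave 24 (without day 19 replicate 4) to 178 (without day 10 replicate 7); day 10 replicates 2, 3 and 6 and day 19 replicates 1, 2 and 3 also moved it by over 1.5 times. For day 19 against day 7 they numbered 903, but 1483 with quantile normalization, 0 with all 28 libraries, 581 without a filter, 1740 with only the 2 days, 3348 with voom and 1787 without the rich libraries. Leaving out 1 replicate gave 247 (without day 19 replicate 4) to 1383 (without day 7 replicate 5); day 7 replicates 3 and 4 and day 19 replicates 1, 2 and 3 also moved it by over 1.5 times.

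Day 19 minus day 16, with no test, became 0.14 and 0.20 with median centring and -0.81 and -0.79 with all 28 libraries, and for ENSBTAT00000018521 -1.53 with quantile normalization and 0.0777 without the merged day 16 replicates 2 and 3. Depth limits the day 13 levels, where counts of 9 to 51 reads in 4 libraries leave wide intervals.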
